A study of Mus musculus with 53 samples.

Results

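The comparison set 3 RNA sequencing libraries of YM-155-treated tumours against 3 of vehicle-treated tumours, all grown from the WGD- form of TA3 Hauschka cells in A/J mice. These 6 libraries were chosen by their titles, from 24 libraries of the YM-155 experiment and 53 of the whole series. TA3 Hauschka is a mouse mammary tumour line. Its engineered WGD- cells have not doubled their genome and its WGD+ cells have. Mice were females of 6 weeks that received the cells in Matrigel, orthotopically, and then YM-155 or vehicle over 14 days. A/J is an inbred strain whose T, B and NK cells are present. For comparison stand A/J mice with WGD+ tumours and hosts titled NSG with WGD- tumours, each under YM-155 or vehicle with 3 libraries per group. These hosts carry NOD.Cg-Prkdcscid and Il2rgtm1Wjl, which leave them without mature lymphocytes, and the human cytokine transgene Tg(CMV-IL3,CSF2,KITLG). WGD+ tumours of the same hosts, under both treatments, entered the fit only. A/J WGD- tumours given isotype antibody over 14 days, and others collected at day 8 or day 14, are described at the end. The genotype field follows the treatment in the YM-155 experiment and gives the 3 YM-155 libraries compared here as WGD+, so form was taken from the titles. The labels do not state whether replicates came from separate animals, and the p-values then reflect only how far these libraries spread, which may be technical.

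YM-155 is a small molecule first selected for lowering transcription of Birc5, the gene of survivin. Survivin inhibits apoptosis, and with Aurkb, Incenp and Cdca8 it forms the chromosomal passenger complex, which corrects kinetochore attachments and drives cytokinesis. The compound enters cells mainly through the carrier encoded by Slc35f2, and DNA damage and oxidative stress are also known responses to it in cultured cells. In tumours of immune competent hosts, interferon gamma from T and NK cells induces guanylate binding proteins, chemokines and antigen presentation genes in tumour and host cells alike.

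Levels are given as log2(CPM + 1), where CPM is the read count scaled to library size, and a change is the YM-155 mean minus the vehicle mean on that scale, which understates the change of low genes. A gene was called where the limma p, adjusted by Benjamini-Hochberg over the 13826 genes tested, was under 0.05. The 3 YM-155 libraries held 6562588, 6676108 and 7752293 reads assigned to genes, and the 3 vehicle libraries held 5908338, 3232351 and 7123164. Vehicle replicate 2 was the shallowest of the 24, and its best correlation with another library was 0.942, which lay 11.4 median absolute deviations under the median library. Vehicle replicate 1 lay 3.77 under it, at 0.972. YM-155 replicate 2 and vehicle replicate 3 correlated best with each other, at 0.981, rather than with libraries of their own treatment. Epithelial genes of the tumour line were present in all 6, with Krt8 at 9.94 to 10.48 under YM-155 and 9.90 to 10.36 under vehicle. Of 11 T cell markers, 10 had values. Cd3d, Cd3e, Cd3g, Cd8b1, Cd28 and Trac were not tested, for too low a level or for want of a value. Lck and Foxp3 were tested, but NSG WGD- vehicle tumours held them too, at 3.41 to 3.85 and 3.78 to 3.79.

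With all libraries, limma called 579 of 13826 genes (4.19%). Of these 307 were higher under YM-155 (2.22% of genes tested) and 272 were lower (1.97%), with a smallest adjusted p of 0.0152. Whether called or not, 7437 genes had a positive change and 6388 a negative one. The 3 YM-155 values lay above all 3 vehicle values in 1729 genes (12.5%) and below them in 1113 (8.05%). Among the called genes, 296 of 307 higher and 233 of 272 lower ones had groups that did not overlap. The count rested on 2 libraries and on fitting all 24 together, which shares their spread. Fitted on the 6 libraries alone, limma called 1 gene. The median SE of the 579 genes was then 1.233 times that of the full fit. Limma called 0 genes without YM-155 replicate 3, with 2326 at an unadjusted p under 0.05, and 0 without vehicle replicate 2, with 2339. It called 1815 without vehicle replicate 3. Each of the 579 genes kept its sign with any 1 library left out, with a median change 0.822 times its full size without vehicle replicate 2 and 0.928 times without YM-155 replicate 3. No gene was called in all 6 leave-outs, and 152 were called in 4. Every call named below was thus lost without vehicle replicate 2 and without YM-155 replicate 3. Limma with voom weights on recovered reads called 27 genes, all of them among the 579.

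**Figure D1:**
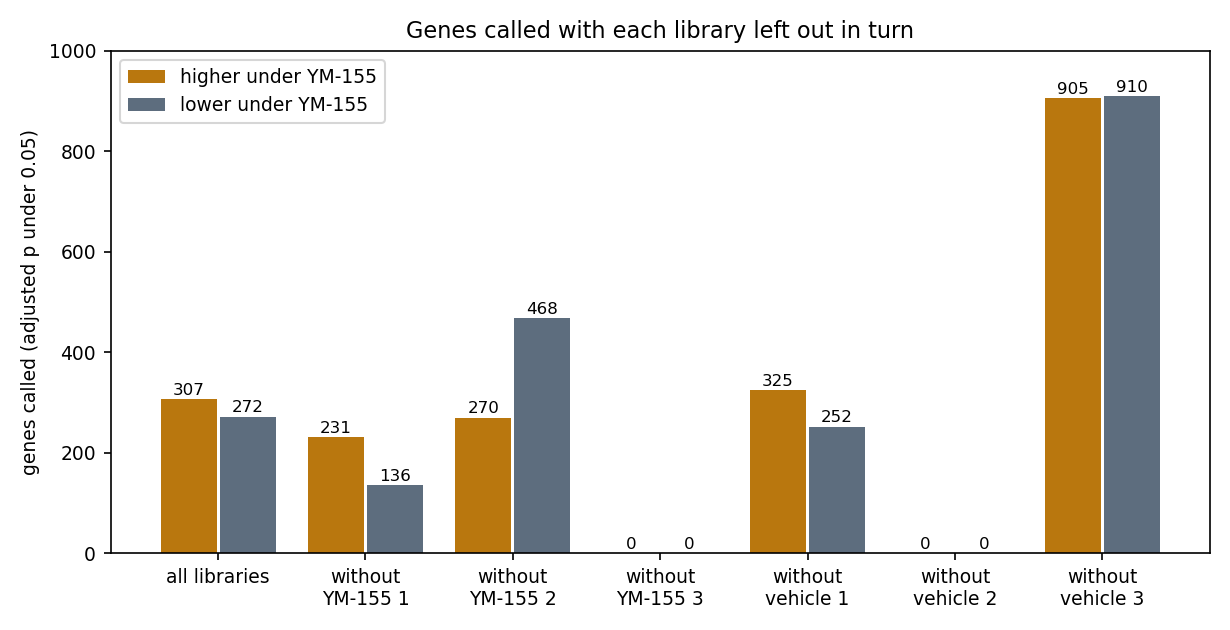
Number of genes called (vertical axis, adjusted p under 0.05) with all libraries and with each library left out, higher under YM-155 in the left bar of a pair and lower in the right bar. Both bars are at 0 without YM-155 replicate 3 and without vehicle replicate 2, and reach 905 and 910 without vehicle replicate 3.

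Genes of 3 patterns over the 6 libraries are described. Some were separated evenly between the treatments. In other genes YM-155 replicates 1 and 3 were low while YM-155 replicate 2 was at vehicle level, and in others vehicle replicates 1 and 2 were high while vehicle replicate 3 was near the YM-155 libraries. Among the 272 genes called lower, YM-155 replicate 2 was the YM-155 library nearest to vehicle in 61.8% and vehicle replicate 3 the vehicle library nearest to YM-155 in 75.7%. Over all genes tested with a negative change these shares were 37.6% and 40.5%. Among the 307 genes called higher, YM-155 replicate 1 was instead most often nearest to vehicle, in 53.7%, and YM-155 replicate 2 in 33.6%. Vehicle replicate 3 was again most often nearest to YM-155, in 56.4%. Over all genes with a positive change YM-155 replicate 1 was nearest in 40.5%, YM-155 replicate 2 in 33.75% and vehicle replicate 3 in 43.4%.

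**Figure D2:**
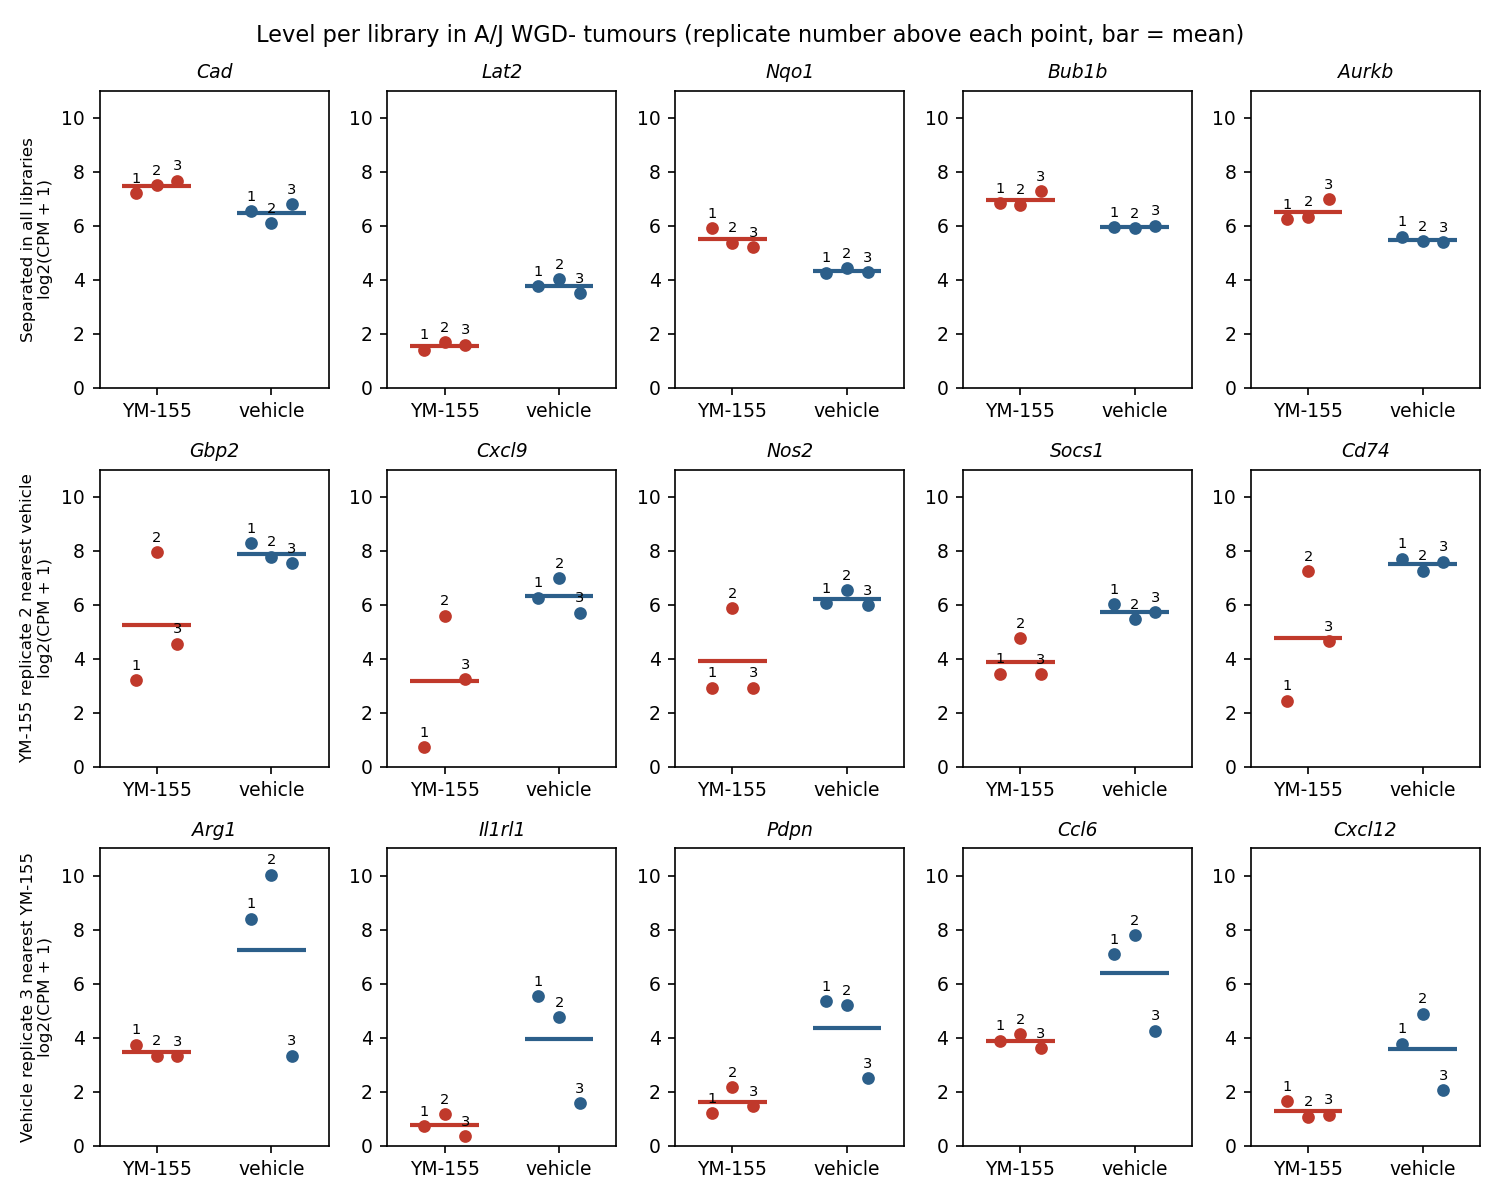
Level in log2(CPM + 1) (vertical axis) of 15 genes, chosen after their values were seen to show each pattern, in the 3 YM-155 libraries (left) and the 3 vehicle libraries (right), with the replicate number above each point and a bar at the group mean. Cad in the top row lies between 7.20 and 7.66 under YM-155 and between 6.10 and 6.78 under vehicle. In the middle row YM-155 replicate 2 is the YM-155 library nearest to vehicle, and in the bottom row vehicle replicate 3 is the vehicle library nearest to YM-155.

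Promoter sequences are shown for the interferon-gamma, NRF2 and G2/M lists, for each of which a DNA element is known. RefSeq promoter windows (build GRCm38.p6, 250 bases before to 50 after a start) were searched on both strands for the ISRE core GAAANNGAA, bound by interferon-activated factors, the interferon-gamma-activated element GAS TTCNNNGAA, the ARE core TGACNNNGC of NRF2, whose first letters also occur in AP-1 sites, and the cell cycle element CHR TTTGAA. Windows of all RefSeq genes held them in 9.76%, 9.55%, 14.0% and 20.2% of genes. Among tested genes with a window these shares were 8.61%, 8.39%, 17.1% and 14.3%. The ISRE core was in 11 of 12 interferon-gamma genes with a window and the GAS in 5 of 12. The ARE core was in 7 of 11 NRF2 genes and the CHR in 11 of 15 G2/M genes. A match describes letters and is no evidence of binding. For each of these 3 lists the windows of the 2 members with the smallest p that hold the motif are given, in the gene's direction, with the motif in capitals. Socs1 carries 2 overlapping ISRE cores at chr16:10785487-10785786 on the minus strand, and Gbp7 carries 1 at chr3:142530086-142530385 on the plus strand. For NRF2 genes the ARE cores of G6pdx (chrX:74428831-74429130, minus strand) and Txnrd1 (chr10:82858956-82859255, plus strand) are marked. Of the 3 windows of Txnrd1, 1 held the motif. For G2/M genes the CHR of Bub1b (chr2:118597961-118598260, plus strand) and Kif11 (chr19:37376132-37376431, plus strand) is marked.
Socs1: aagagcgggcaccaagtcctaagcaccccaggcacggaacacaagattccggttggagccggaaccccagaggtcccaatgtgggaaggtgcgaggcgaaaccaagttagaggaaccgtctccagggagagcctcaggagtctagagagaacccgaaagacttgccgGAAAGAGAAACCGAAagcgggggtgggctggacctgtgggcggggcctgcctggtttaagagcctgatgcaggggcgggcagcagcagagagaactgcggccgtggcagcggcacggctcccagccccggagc
Gbp7: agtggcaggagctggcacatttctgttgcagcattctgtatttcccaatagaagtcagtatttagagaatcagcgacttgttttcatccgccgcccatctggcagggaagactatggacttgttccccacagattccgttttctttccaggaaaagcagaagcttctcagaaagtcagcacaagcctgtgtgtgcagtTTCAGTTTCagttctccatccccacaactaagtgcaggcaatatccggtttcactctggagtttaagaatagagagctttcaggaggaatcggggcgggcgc
G6pdx: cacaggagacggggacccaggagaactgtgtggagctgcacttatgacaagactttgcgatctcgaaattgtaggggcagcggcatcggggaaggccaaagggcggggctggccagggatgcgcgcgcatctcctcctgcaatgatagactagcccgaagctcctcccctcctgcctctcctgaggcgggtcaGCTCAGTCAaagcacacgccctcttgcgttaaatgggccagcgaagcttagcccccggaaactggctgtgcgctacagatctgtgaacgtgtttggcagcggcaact
Txnrd1: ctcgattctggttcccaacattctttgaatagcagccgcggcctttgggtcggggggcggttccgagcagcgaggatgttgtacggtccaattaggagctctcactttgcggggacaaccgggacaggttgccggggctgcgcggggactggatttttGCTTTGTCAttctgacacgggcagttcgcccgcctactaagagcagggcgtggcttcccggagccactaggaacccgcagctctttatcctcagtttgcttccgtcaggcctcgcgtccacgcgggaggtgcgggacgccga
Bub1b: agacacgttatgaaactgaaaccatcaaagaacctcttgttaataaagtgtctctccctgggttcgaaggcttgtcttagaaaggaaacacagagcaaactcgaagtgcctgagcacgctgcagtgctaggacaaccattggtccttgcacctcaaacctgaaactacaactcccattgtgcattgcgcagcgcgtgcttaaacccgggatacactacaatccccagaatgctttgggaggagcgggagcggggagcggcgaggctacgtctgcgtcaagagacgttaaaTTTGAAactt
Kif11: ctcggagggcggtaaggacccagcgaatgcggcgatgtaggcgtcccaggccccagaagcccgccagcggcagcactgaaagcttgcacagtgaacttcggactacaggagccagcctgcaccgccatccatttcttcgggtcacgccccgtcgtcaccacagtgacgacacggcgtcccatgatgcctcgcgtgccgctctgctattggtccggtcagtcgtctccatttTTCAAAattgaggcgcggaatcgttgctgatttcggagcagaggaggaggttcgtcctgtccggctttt

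Birc5 was at 7.10, 6.54 and 7.12 in the YM-155 libraries and at 6.86, 7.003 and 6.97 in the vehicle libraries. The groups overlapped, with YM-155 replicate 2 lowest. Its change was -0.02 (SE 0.18, 95% interval -0.40 to 0.36, limma adjusted p = 0.953). Aurkb, the mitotic kinase of the passenger complex, was at 6.24, 6.32 and 6.97 under YM-155 and at 5.59, 5.41 and 5.38 under vehicle. All YM-155 libraries lay above all vehicle libraries, and Aurkb rose by 1.05 (SE 0.19, adjusted p = 0.0163). The scaffold gene Incenp had a change of 0.41 (SE 0.19, adjusted p = 0.182) and the borealin gene Cdca8 of 0.38 (SE 0.16, adjusted p = 0.144). Thus 1 of 4 complex genes rose (25%, against 2.22% of all genes tested), with a median change of 0.39 against 0.04 over all genes tested. That median was 0.20 without YM-155 replicate 3.

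None of the 7 other inhibitor of apoptosis genes passed (0 by limma, and 0 by voom), with Birc3 at -0.51 (SE 0.24) and Xiap at -0.19 (SE 0.14). Of 11 tested BCL2 family genes 0 passed, with Mcl1 at -0.29 and Bcl2l1 at 0.06. The low paralogs Bcl2a1b and Bcl2a1d had changes of -1.69 and -1.33 (adjusted p = 0.0805 and 0.0612), and near-identical copies make their counts uncertain. Among 15 p53 response genes 0 passed by limma or voom. Cdkn1a, the p21 inhibitor of cyclin kinases, was at 8.22, 8.45 and 7.97 under YM-155 and 8.34, 7.80 and 8.64 under vehicle. The uptake carrier gene Slc35f2 was low in every library, at 1.49, 1.36 and 1.98 under YM-155 and 1.52, 1.05 and 0.20 under vehicle. Its change was 0.69 (SE 0.36, adjusted p = 0.241), and none of the 4 efflux pump genes passed, the largest change being 0.51 for Abcc1 (SE 0.19, adjusted p = 0.0954).

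Mitotic and replication genes were on balance higher under YM-155 than in the vehicle libraries of this experiment. Of 18 G2/M genes 3 rose (16.7%, against 2.22% of all genes tested) and 0 fell, and voom called 1 of the 18 higher. A positive change was seen in 16, as in 7437 of all 13826 genes tested. Their median was 0.46 against 0.04 over all genes. Bub1b, a spindle checkpoint kinase, was at 6.82, 6.77 and 7.28 under YM-155 and 5.93, 5.90 and 5.99 under vehicle. These groups were separated, with YM-155 replicate 3 highest, and Bub1b rose by 1.02 (SE 0.19, limma adjusted p = 0.0163). Kif11, the motor that separates spindle poles, was at 6.03, 5.97 and 6.59 under YM-155 and 5.42, 5.23 and 5.24 under vehicle, and rose by 0.91 (SE 0.20, adjusted p = 0.0256). Kif20a, a motor of cytokinesis, was at 6.74, 6.77 and 7.23 under YM-155 and 6.58, 5.49 and 6.39 under vehicle, a rise of 0.76 (SE 0.20, adjusted p = 0.0355). Its gene body overlaps Cdc23 on the other strand. YM-155 replicate 3 was the highest and vehicle replicate 2 the lowest library for all 3. Mki67, the proliferation marker, also had groups that did not overlap, at 8.11, 8.18 and 8.59 against 8.01, 7.55 and 7.91 in vehicle, with a change of 0.47 (adjusted p = 0.0848).

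Of 16 replication genes 3 rose (18.75%, against 2.22% of all genes tested), and voom called 0 of them. All 16 had a positive change, with a median of 0.34, or 0.21 without YM-155 replicate 3. Mcm5, a subunit of the replicative helicase, was at 7.04, 7.26 and 7.63 under YM-155 and 6.51, 6.57 and 6.60 under vehicle, and rose by 0.75 with SE 0.17 (limma adjusted p = 0.0256). Mcm6, of the same helicase, rose by 0.70 (SE 0.18) and Rrm1, a subunit of ribonucleotide reductase, by 0.64 (SE 0.16). The list mean was 6.84, 6.83 and 7.31 for G2/M genes under YM-155 and 6.75, 6.27 and 6.52 under vehicle. For replication genes it was 6.35, 6.62 and 6.87 under YM-155 and 6.38, 5.99 and 6.23 under vehicle, so YM-155 replicate 1 and vehicle replicate 1 were level. Without YM-155 replicate 3 the median of the G2/M list was 0.32 and without vehicle replicate 2 it was 0.28, with 0 members called in either case.

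Of 14 oxidative stress response genes that NRF2 controls, 4 rose (28.6%, against 2.22% of all genes tested) and 0 fell. Their median change was 0.27, and voom called 1 of them higher. Nqo1, a quinone reductase that detoxifies naphthoquinones, was at 5.91, 5.37 and 5.21 under YM-155 and 4.26, 4.42 and 4.28 under vehicle. The lowest YM-155 library lay above the highest vehicle library, and Nqo1 rose by 1.18 (SE 0.23, 95% interval 0.69 to 1.66, limma adjusted p = 0.0192). Slc7a11, which imports cystine for glutathione synthesis, was at 4.78, 4.41 and 4.66 under YM-155 and 3.11, 3.94 and 3.66 under vehicle, and rose by 1.05 (SE 0.27, adjusted p = 0.0352). G6pdx, which makes NADPH, rose by 0.80 (SE 0.18, adjusted p = 0.0256), and its gene body overlaps Ikbkg on the other strand. Gclc, the catalytic subunit for glutathione synthesis, rose by 0.65 (SE 0.19, adjusted p = 0.0492). Of the 10 members not called, 6 had a positive change, and in Txnrd1, a thioredoxin reductase, the groups were separated too (change 0.47, SE 0.14, adjusted p = 0.0524). Hmox1, the heme oxygenase also made by macrophages, was at 6.87, 7.42 and 6.82 under YM-155 and 8.42, 8.96 and 7.09 under vehicle (change -1.12, adjusted p = 0.0535), and Prdx1 had a change of -0.12 (SE 0.17). Without vehicle replicate 2 the list's median was 0.26, with 0 members called, and it was 0.16 without YM-155 replicate 2 and 0.44 without YM-155 replicate 1.

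Of 11 integrated stress response genes 0 passed by limma and 0 by voom, with a median change of 0.34, or 0.18 without YM-155 replicate 3 and 0.54 without YM-155 replicate 2. Ddit4, an inhibitor of mTOR signalling, was nevertheless at 10.93, 10.81 and 10.40 under YM-155 and 9.06, 9.49 and 9.79 under vehicle, with separated groups and a change of 1.27 (SE 0.38, adjusted p = 0.0606). Among 15 hypoxia and glycolysis genes 0 passed, with a median of -0.19, and the glucose carrier gene Slc2a1 had a change of 0.80 (SE 0.34, adjusted p = 0.146).

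The largest rises among called genes with separated groups were in genes of mixed function. Dlx1, a homeobox factor, was at 2.79, 3.15 and 3.14 under YM-155 and 1.96, 0.78 and 1.49 under vehicle, a rise of 1.61 with SE 0.31 (limma adjusted p = 0.0178), and it overlaps an antisense gene. Col4a2, a chain of basement membrane collagen, was at 6.93, 6.76 and 7.60 under YM-155 and 6.11, 5.41 and 6.19 under vehicle, and rose by 1.19 (SE 0.33, adjusted p = 0.0454). It was the only 1 of 12 basement membrane genes to pass by limma (8.33%, against 2.22% of all genes tested called higher), and voom called 0. Its partner Col4a1 had a change of 0.99 (SE 0.33, limma adjusted p = 0.0779). Clstn1, a synaptic cadherin-like protein that also carries cargo on kinesin, rose by 1.23, Atpaf1, an assembly factor of mitochondrial ATP synthase, by 1.19, and Rpap1, a partner of RNA polymerase II, by 1.06. Aspa, which splits N-acetylaspartate, rose by 1.16 and Gemin5, which loads small nuclear RNAs, by 1.04. Mroh8, Emid1, Gstcd and the gene model BC024978 rose by 1.54, 1.06, 1.11 and 1.11. Vehicle replicate 2 was the lowest library for Dlx1, Col4a2, Clstn1, Aspa, Rpap1, Gstcd, Emid1 and Gemin5, and its part in these rises was not tested beyond leaving it out.

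Interferon-gamma-induced genes were low in 2 of the 3 YM-155 libraries and at vehicle level in replicate 2. All 19 tested members had a negative change, as had 6388 of all 13826 genes tested, with a list median of -2.29. Of the 19, 3 fell (15.8%, against 1.97% of all genes tested) and 0 rose, and voom called 1 lower. The mean over the list was 2.60, 6.17 and 3.37 in YM-155 replicates 1 to 3 and 6.70, 6.37 and 6.06 in vehicle replicates 1 to 3. Their summed level was 164, 2203 and 275 CPM under YM-155 and 3351, 2353 and 1984 CPM under vehicle. YM-155 replicate 2 therefore lay within the range of the vehicle libraries, and replicates 1 and 3 lay far below it.

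**Figure D3:**
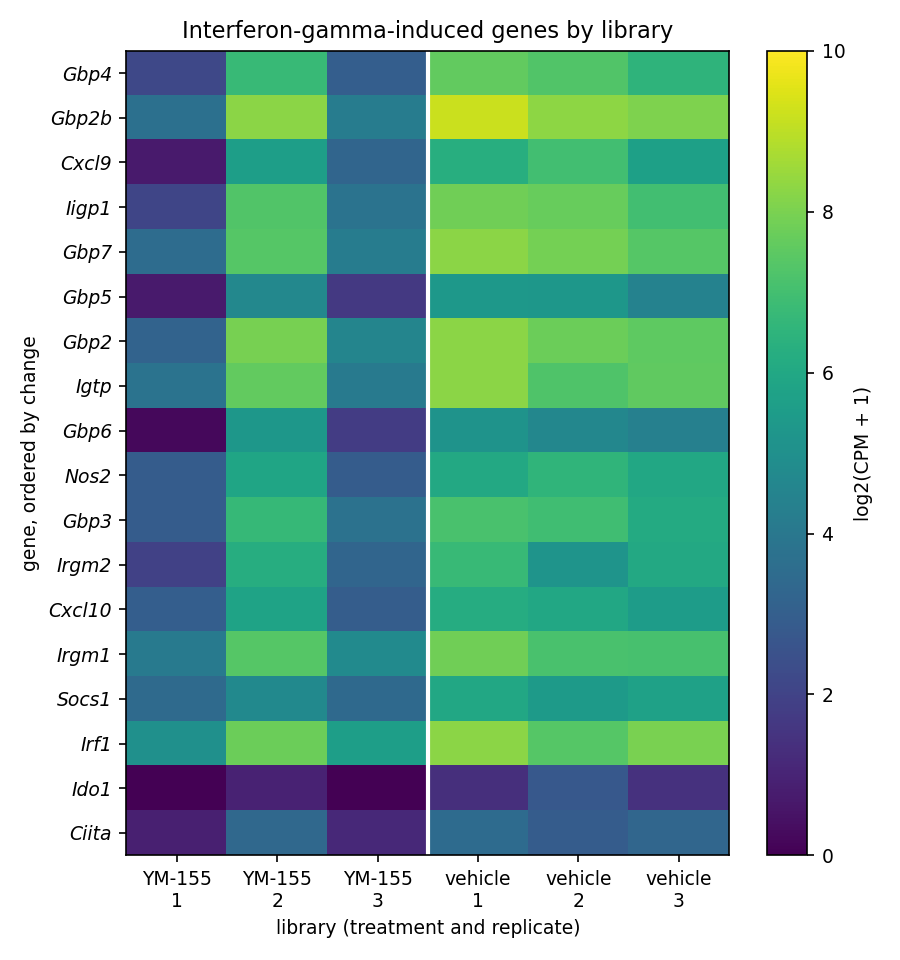
Level in log2(CPM + 1) (colour) of 18 of the 19 tested interferon-gamma-induced genes (rows, ordered by change) in the 3 YM-155 libraries (left of the white line) and the 3 vehicle libraries (right). The column of YM-155 replicate 2 resembles the vehicle columns, with a mean over the whole list of 6.17 against 6.06 to 6.70 in vehicle.

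Gbp2, a guanylate binding protein, was at 3.20, 7.93 and 4.56 under YM-155 and 8.27, 7.77 and 7.52 under vehicle (change -2.62, SE 0.93, limma adjusted p = 0.0953), and reads may be split among the close paralogs of this family. Cxcl9, a chemokine for activated T cells, was at 0.73, 5.59 and 3.24 under YM-155 and 6.26, 6.97 and 5.70 under vehicle (change -3.12, SE 1.13, adjusted p = 0.102). In the 3 genes that fell YM-155 replicate 2 lay below all vehicle libraries. Socs1, the feedback inhibitor of the pathway, was at 3.44, 4.76 and 3.42 under YM-155 and 6.01, 5.46 and 5.71 under vehicle, and fell by 1.86 on the log2 scale (SE 0.41, adjusted p = 0.0256). Nos2, the inducible nitric oxide synthase, was at 2.92, 5.87 and 2.92 under YM-155 and 6.05, 6.54 and 5.98 under vehicle, and fell by 2.29 (SE 0.62, adjusted p = 0.0453). Ido1, which degrades tryptophan, held 0, 6 and 0 reads under YM-155 and 9, 16 and 11 under vehicle, and its fitted fall of 1.51 (SE 0.33, adjusted p = 0.0241) rests on those few reads. Without YM-155 replicate 2, 19 of 19 members were called lower, against 468 of all 13826 genes tested, and the list median was -3.40. Without YM-155 replicate 3 or vehicle replicate 2 the count was 0 in each case, with medians of -1.92 and -2.34.

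Type I interferon genes and MHC class II genes followed the same libraries. None of 20 type I genes passed with all libraries (0 by limma and 0 by voom, with all 20 negative and a median of -1.55), and their mean was 3.06, 5.29 and 3.23 under YM-155 and 5.47, 5.15 and 5.24 under vehicle. Isg15, a ubiquitin-like modifier, was at 5.33, 7.23 and 5.73 under YM-155 and 7.59, 7.69 and 7.31 under vehicle, separated by a narrow gap (change -1.43, SE 0.45, limma adjusted p = 0.0702). Ifi44l, a gene of the same response outside the list, held 0, 21 and 0 reads under YM-155 and 51, 17 and 33 under vehicle, and fell by 2.19 (SE 0.45, adjusted p = 0.0196). Of 7 MHC class II genes 0 passed by limma or voom, with a median of -2.11. Cd74, the invariant chain, was at 2.44, 7.25 and 4.65 under YM-155 and 7.69, 7.25 and 7.59 under vehicle (change -2.73, SE 1.01, adjusted p = 0.109). H2-DMa, which loads peptides on class II, had a change of -1.89 (SE 0.55, adjusted p = 0.0538), and it overlaps Brd2 on the other strand. Class I presentation genes, gathered after values were seen, had 12 of 12 negative changes with a median of -1.67. Of these Psme1 (-1.06) and Psme2 (-1.18), both of the proteasome activator, fell (16.7%, against 1.97% of all genes tested). Voom called 0 of the 12. H2-K1 was at 8.78, 11.36 and 8.97 under YM-155 and 11.84, 10.77 and 11.86 under vehicle. Without YM-155 replicate 2, 16 of 20 type I genes (median -2.41) and 6 of 7 class II genes were called lower, against 468 of all 13826 genes tested. Without YM-155 replicate 1 the class II median was -1.41.

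Transcripts of cytotoxic lymphocytes and NK cells, a source of interferon gamma, were few. Ifng itself was at 0.00, 1.53 and 0.18 under YM-155 and 1.82, 1.95 and 1.49 under vehicle, a change of -1.19 (SE 0.35, limma adjusted p = 0.0555). Of 7 tested cytotoxic genes 2 fell (28.6%, against 1.97% of all genes tested), and voom called 1 lower. The granule gene Nkg7 held 0, 6 and 5 reads under YM-155 and 17, 12 and 25 under vehicle, and the granzyme gene Gzma 0, 4 and 0 under YM-155 and 17, 5 and 11 under vehicle. Their fitted falls were 1.64 (SE 0.30) and 1.38 (SE 0.25), each with an adjusted p of 0.0163, and depend on the 1 CPM added before the log. The list's summed level was 3.61, 22.3 and 3.36 CPM under YM-155 and 23.0, 24.4 and 19.6 CPM under vehicle, again with YM-155 replicate 2 at vehicle level. Cd2, a T cell adhesion gene, fell by 0.96 (SE 0.28, adjusted p = 0.0485) on 1, 4 and 0 reads under YM-155 and 5, 4 and 14 under vehicle, 1 of 5 tested T cell genes to do so, while Lck had a change of 0.38. Cd86, the costimulatory ligand and 1 of 7 checkpoint genes to fall, was at 0.86, 1.88 and 1.05 under YM-155 and 2.29, 2.59 and 2.47 under vehicle, and fell by 1.18 (SE 0.31, adjusted p = 0.0362). Cd274, the PD-L1 gene, was at 1.65, 4.92 and 2.92 under YM-155 and 5.25, 5.55 and 5.21 under vehicle (change -2.17, SE 0.64, adjusted p = 0.0572). Siglech, a plasmacytoid dendritic cell gene and 1 of 5 dendritic genes to fall, held 1, 0 and 0 reads under YM-155 and 14, 7 and 8 under vehicle and fell by 1.496 (SE 0.28, adjusted p = 0.0163). Voom called 0 of the T cell, checkpoint and dendritic genes. In whole tumours, fewer cells of a type and less RNA per cell cannot be told apart.

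**Figure D4:**
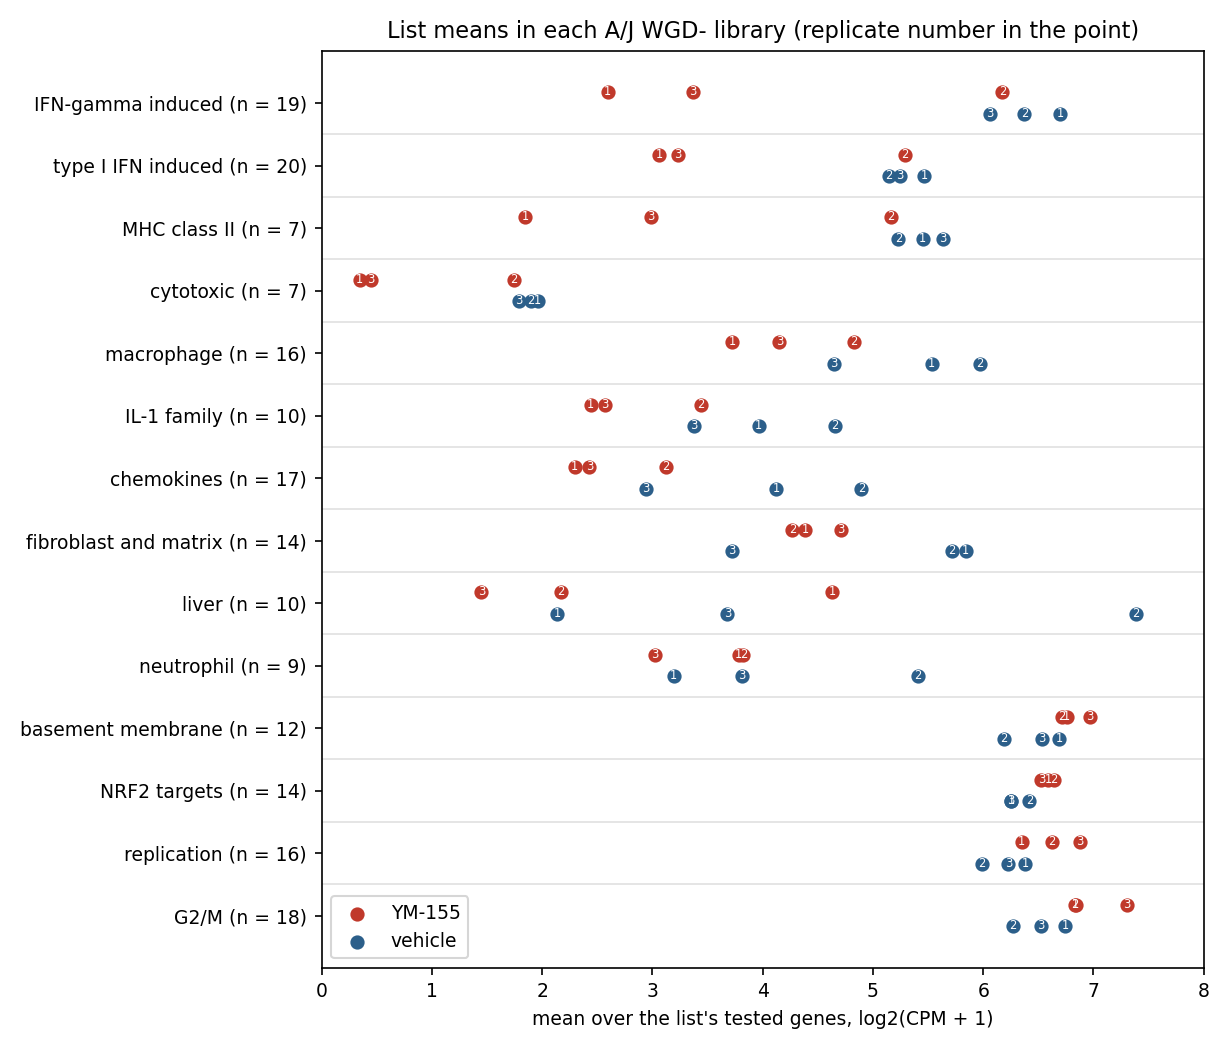
Mean level in log2(CPM + 1) over the tested genes of 14 lists (rows, with the number of genes) in each library, YM-155 in the upper and vehicle in the lower line of a row, with the replicate number in the point. YM-155 replicate 2 lies at or just under vehicle level in the interferon, MHC class II and cytotoxic rows, vehicle replicate 3 lies low in the chemokine and fibroblast rows, and vehicle replicate 2 stands apart in the liver row at 7.39.

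Chemokine genes were lower under YM-155 mainly against vehicle replicates 1 and 2. Of 17 chemokine genes 4 fell (23.5%, against 1.97% of all genes tested) and 0 rose, with a median change of -1.25. Voom called 0 of the 17. Ccl2, which attracts monocytes, was at 1.79, 2.77 and 2.37 under YM-155 and 4.93, 5.30 and 3.15 under vehicle, and fell by 2.15 (SE 0.43, limma adjusted p = 0.0194). Ccl6, a chemokine of mouse myeloid cells, was at 3.89, 4.12 and 3.60 under YM-155 and 7.08, 7.79 and 4.26 under vehicle, and fell by 2.51 (SE 0.70, adjusted p = 0.0493). Cxcl12, made by stromal cells, was at 1.65, 1.07 and 1.14 under YM-155 and 3.78, 4.89 and 2.06 under vehicle, and fell by 2.29 (SE 0.57, adjusted p = 0.0336). For each of these the groups did not overlap, but vehicle replicate 3 lay close to the highest YM-155 library. Ccl4, which attracts myeloid cells and lymphocytes, fell by 2.01 (SE 0.45, adjusted p = 0.0256), whereas the neutrophil attractant Cxcl1 had a change of 0.67 (SE 0.39, adjusted p = 0.289). Without vehicle replicates 1 and 2 together the median of the chemokine list was -0.39.

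Il1rl1, the receptor for interleukin 33, showed the largest called fall among genes with separated groups. It was at 0.73, 1.17 and 0.34 under YM-155 and 5.54, 4.74 and 1.57 under vehicle, a fall of 3.20 (SE 0.61, limma adjusted p = 0.0192). Il1rn, the interleukin 1 receptor antagonist, was at 1.65, 4.18 and 1.93 under YM-155 and 4.28, 6.20 and 4.52 under vehicle, and fell by 2.41 (SE 0.56, adjusted p = 0.0274). Il1b, the cytokine itself, was at 1.98, 4.18 and 2.84 under YM-155 and 3.78, 7.24 and 4.46 under vehicle. Its groups overlapped and vehicle replicate 2 was far above the rest, with a fall of 2.16 (SE 0.60, adjusted p = 0.0492). Thus 3 of 10 tested family genes fell (30%, against 1.97% of all genes tested), and 0 by voom. The family's median was -1.07, or -0.71 without YM-155 replicate 1 and -0.61 without vehicle replicates 1 and 2 together. Ptgs2, the inducible cyclooxygenase, was at 3.99, 4.39 and 4.03 under YM-155 and 6.34, 6.61 and 4.87 under vehicle, and fell by 1.80 (SE 0.30, adjusted p = 0.0158), 1 of 12 inflammatory genes to do so. Tnf had a change of -0.93 (SE 0.35, adjusted p = 0.0997).

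All 16 macrophage genes had a negative change, as had 6388 of all 13826 genes tested, with a list median of -0.93. Of the 16, 2 fell (12.5%, against 1.97% of all genes tested), and voom called 0. Arg1, the arginase of alternatively activated macrophages, was at 3.73, 3.34 and 3.32 under YM-155 and 8.40, 10.03 and 3.33 under vehicle. Vehicle replicate 3 sat among the YM-155 libraries, and the fall of 3.79 (SE 0.99, limma adjusted p = 0.0414) rested on the other two vehicle libraries, since the change without them was 0.14. Msr1, a scavenger receptor, was at 2.98, 4.45 and 3.38 under YM-155 and 5.28, 5.64 and 4.37 under vehicle, and fell by 1.49 (SE 0.42, adjusted p = 0.0495). Csf1r, the receptor for the macrophage growth factor, was at 2.53, 4.54 and 3.24 under YM-155 and 4.23, 3.64 and 4.12 under vehicle, with overlapping groups (change -0.56, SE 0.43, adjusted p = 0.432). The list's summed level was 494, 798 and 692 CPM under YM-155 and 1836, 3074 and 816 CPM under vehicle. Aif1, a gene of the macrophage cytoskeleton, fell by 2.40 (SE 0.62, adjusted p = 0.0378).

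Other large falls were in genes of mixed function. Pdpn, a membrane glycoprotein of fibroblasts and lymphatic vessels, was at 1.21, 2.16 and 1.46 under YM-155 and 5.35, 5.19 and 2.51 under vehicle, and fell by 2.74 (SE 0.53, limma adjusted p = 0.0192). Ubd, a ubiquitin-like modifier induced by inflammatory cytokines, was at 0.22, 3.01 and 1.14 under YM-155 and 3.88, 5.32 and 3.59 under vehicle, and fell by 2.81 (SE 0.65, adjusted p = 0.0275). Rarres2, the gene of the chemoattractant chemerin, was at 3.504, 3.81 and 2.87 under YM-155 and 7.08, 7.54 and 3.94 under vehicle and fell by 2.79, and Lrrc61 fell by 2.34. Their gene bodies overlap by 1027 bases on opposite strands, so reads may be shared between them. Gatm, of creatine synthesis, was at 1.92, 3.22 and 2.21 under YM-155 and 4.98, 5.93 and 3.53 under vehicle and fell by 2.36. The noncoding RNA gene Meg3 fell by 2.35 and the membrane protein gene Tmem45a by 2.29. In all of these except Ubd vehicle replicate 3 was the lowest vehicle library by over 1 log2 unit. Rab7b, a GTPase of late endosomes, was at 0.86, 2.63 and 1.77 under YM-155 and 4.28, 4.42 and 3.07 under vehicle, and fell by 2.17 (SE 0.42, adjusted p = 0.0178).

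Fibroblast and matrix genes varied with the same vehicle libraries, and 0 of 14 passed by limma or voom. Their list mean was 4.39, 4.27 and 4.71 under YM-155 and 5.84, 5.71 and 3.72 under vehicle, so vehicle replicate 3 lay below every YM-155 library. Dcn, a small matrix proteoglycan, was at 3.10, 2.30 and 2.79 under YM-155 and 5.95, 7.14 and 1.77 under vehicle. Hepatocyte genes stood out in vehicle replicate 2, with Alb at 6.35, 3.66 and 1.05 under YM-155 and 3.48, 10.04 and 6.01 under vehicle. The liver list summed to 964, 401 and 685 CPM under YM-155 and 430, 2957 and 432 CPM under vehicle. The neutrophil list summed to 151, 186 and 107 CPM under YM-155 and 106, 1749 and 181 CPM under vehicle. The part of these cells' transcripts in the falls above was not tested. Of 8 adipocyte, 11 endothelial, 8 pericyte and smooth muscle, 11 skeletal muscle, 9 neutrophil, 10 liver, 5 mast cell and granulocyte, 2 B and plasma cell, 3 skin keratinocyte and 12 epithelial genes tested, limma and voom each called 0. Their medians lay between -1.81 (liver) and 0.04 (pericyte and smooth muscle). Without vehicle replicate 2 the liver median was -0.14 and the neutrophil median 0.22, against -0.59 with all libraries, and without both vehicle replicate 2 and YM-155 replicate 3 the liver median was 0.58. Pf4, a platelet and macrophage chemokine, fell by 1.73 (SE 0.44, limma adjusted p = 0.0369). It was 1 of 3 tested erythroid and platelet genes to fall (33.3%, against 1.97% of all genes tested), and voom called 0 of them.

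Lat2 was separated evenly and did not follow either library pattern. Lat2 encodes an adaptor of immune receptors on myeloid and B cells and lies on the minus strand of chromosome 5 from 134600022 to 134615025 in GENCODE (mm10). Its level was 1.40, 1.68 and 1.59 under YM-155 and 3.76, 4.005 and 3.49 under vehicle, or 10, 14 and 15 reads against 74, 42 and 68 in vehicle. It fell by 2.20 (SE 0.35, limma adjusted p = 0.0152) and was also called by voom (adjusted p = 0.0367). Its body overlaps Rfc2, which had a change of 0.21 in the other direction. Among the 27 voom calls were also Cad, the enzyme that starts pyrimidine synthesis (7.20, 7.49 and 7.66 under YM-155 and 6.54, 6.10 and 6.78 under vehicle, a rise of 0.98), Tubg1, gamma tubulin of the spindle poles (a rise of 0.81), and its ring complex partner Tubgcp2 (a rise of 0.88). Eif4e3, a cap binding protein, Kdm7a, a histone demethylase, and Zfp281, a transcription factor, fell by 1.39, 0.97 and 1.04.

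The effect of YM-155 was then compared with that in A/J WGD+ and in NSG WGD- tumours, which share no library with it. Neither difference of effects reached the threshold for any gene. For A/J WGD- minus A/J WGD+ limma called 0 of 13826 genes (0.0%), with 1650 at an unadjusted p under 0.05, a smallest adjusted p of 0.273 and 0 called by voom. For A/J WGD- minus NSG WGD- it called 0 (0.0%), with 1425 at an unadjusted p under 0.05, a smallest adjusted p of 0.449 and 0 by voom. Without A/J WGD- vehicle replicate 3 the counts were 199 and 8. Within A/J WGD+ and within NSG WGD- tumours limma called 0 genes for YM-155, with 445 and 697 at an unadjusted p under 0.05 and 0 by voom. Fitted on the libraries of 1 comparison at a time, limma called 5 genes in NSG WGD- tumours, all lower. It then called 0 in A/J WGD+ and 1 in A/J WGD- tumours. The fit of all libraries without a filter on low values called 1 gene in A/J WGD+ tumours.

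**Figure D5:**
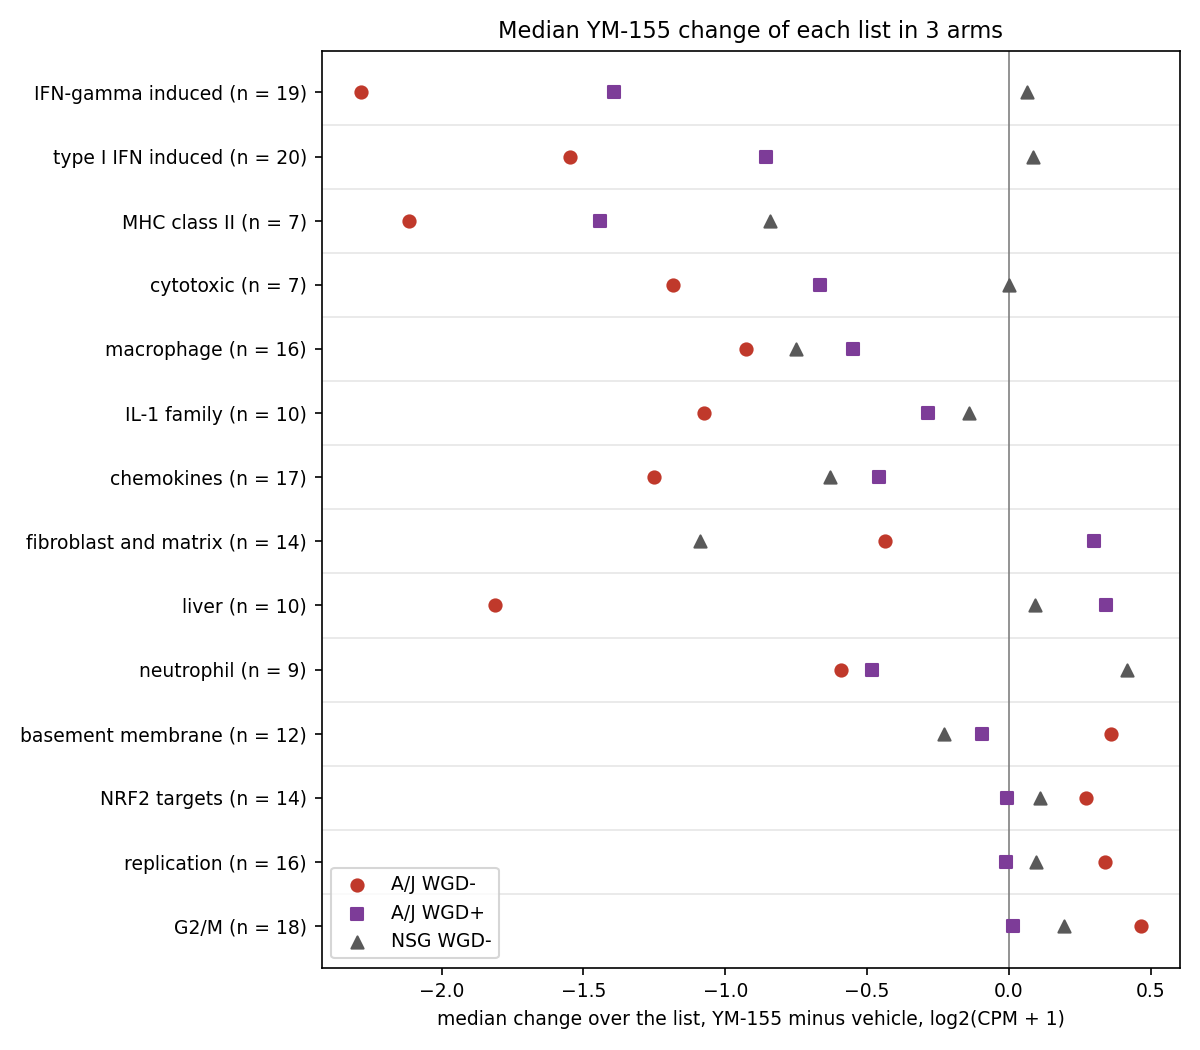
Median change over each list in log2(CPM + 1) units (horizontal axis, YM-155 minus vehicle) in A/J WGD- (circles), A/J WGD+ (squares) and NSG WGD- tumours (triangles). Interferon-gamma genes have medians of -2.29, -1.39 and 0.06 in these arms, and G2/M genes 0.46, 0.01 and 0.19.

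Over the interferon-gamma genes the median change was -2.29 here, -1.39 under WGD+ in the same strain and 0.06 with the NSG hosts. Aurkb differed in effect by 0.87 between the forms (SE 0.27, limma adjusted p = 0.293) and by 0.89 between the hosts (SE 0.27, adjusted p = 0.449). Its level was 5.98 to 6.86 under YM-155 and 6.20 to 6.47 under vehicle in A/J WGD+ tumours, and 6.95 to 7.06 and 6.76 to 6.95 in NSG WGD- tumours. The A/J WGD- vehicle libraries, at 5.38 to 5.59, were therefore the lowest of these groups for Aurkb. Nqo1 was at 4.02 to 4.89 under YM-155 and 4.14 to 4.48 under vehicle in A/J WGD+ tumours, and the effect differed by 0.96 (SE 0.33, adjusted p = 0.322). Ptgs2 stood at 4.07 to 4.33 under YM-155 and 4.13 to 4.25 under vehicle in A/J WGD+ tumours, level with the A/J WGD- YM-155 libraries.

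The smallest p-values for the difference between forms were those of the pseudogene Hmga2-ps1 (difference -2.09, SE 0.42), whose parent gene may share its reads, the peroxisome assembly gene Pex2 (0.94, SE 0.20), the small nucleolar RNA gene Snord72 (-1.85, SE 0.39), which lies inside Rpl37, and Susd1 (1.74, SE 0.38), each with a limma adjusted p of 0.273. Pex2 was at 5.31, 5.33 and 5.18 under YM-155 and 4.77, 4.54 and 4.76 under vehicle in A/J WGD-, and at 4.81 to 5.02 under YM-155 and 5.26 to 5.31 under vehicle in A/J WGD+ tumours. The growth factor gene Bdnf, Zfp281, the clock gene Per1 and the ectonucleotidase gene Entpd6 followed, with differences of -1.68, -1.34, 1.44 and 1.24. For the difference between hosts these were Notum, which inactivates Wnt proteins (2.44, SE 0.52), Dlx1 (1.91), the zinc carrier gene Slc39a11 (1.03), the linker histone gene H1f0 (1.16), Lat2 (-2.16), Siglech (-1.65), Swt1 (-1.42) and Mturn (-1.43), each with a limma adjusted p of 0.449.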

How the data were processed

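The deposited values were log2(CPM + 1) per gene, scaled by the authors with TMM factors within each experiment's table. Per the submitters' processing notes, STAR 2.5.1b, mm10 and edgeR were used; which annotation and strand were counted is not given in the sources used here. Of 24360 symbols, 27 turned into dates were left out. Values were whole multiples of the worth of 1 read for 100% of entries, within 0.1 read, so reads per library were recovered; 1 read was worth 0.134 to 0.358 CPM in the 6 libraries.

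Genes above 1 CPM in at least 3 of the 24 libraries (13826) were fitted with limma 3.58.1 in R 4.3.3, with a mean per group, a trend and robust variances, and adjusted by Benjamini-Hochberg at 0.05. The fit over all 24 libraries shares their spread. The script was checked on simulated data. Alternatives were no filter, 1 CPM more before the log, quantile normalization, the compared groups only, a replicate block, voom on recovered reads, and libraries left out.

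Named genes were the passenger complex and drug handling lists, up to 12 called genes each way, by size of change, with separated groups and a higher mean of at least 3 that have a gene symbol of their own, up to 4 called members per list or otherwise 2 with the smallest p, up to 8 genes each way called in the most leave-outs, and the 4 each way with the smallest p in each difference of effects. Others named, such as the voom calls, were chosen after their values were seen. The members and gene lists were chosen with earlier results of these data known. Values of some genes are not reported here.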

Additional observations from a re-analysis of the deposited data

How the results depend on the processing

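Depth limits low genes most, since 1 read in vehicle replicate 2 was worth 0.358 CPM, and calls on a few reads depend on the 1 CPM added before the log. With no filter on low values 186 genes were called higher. With only the groups compared 1 gene was called (0 higher, 1 lower), and voom called 27 (12 higher, 15 lower). Leaving out 1 library gave 0 to 1815 calls, 0 to 905 higher and 0 to 910 lower, and for the differences of effects 0 to 199 between forms and 0 to 8 between hosts. Without vehicle replicate 2 and YM-155 replicate 3 together 0 were called (0 higher, 0 lower), and likewise 0 (0 and 0) without vehicle replicates 1 and 2. With a replicate block limma called 726 genes (415 higher, 311 lower), 484 of them among the 579, but the labels do not state that same-numbered libraries form pairs. Deviations of same-numbered libraries from their group means correlated at -0.244, -0.131 and -0.0131. With 3 libraries per group these values cannot decide whether the numbers pair. Of 109 named genes, 105 kept both their direction and their call or lack of one with 1 CPM more, 98 under quantile normalization, 60 with voom and 48 with only the groups compared. Only 61 of the 109 were called in the full fit. Of these calls, 3 were lost with 1 CPM more, 8 under quantile normalization, 49 with voom and all 61 with only the groups compared. Some changes turned sign. Over the single leave-outs Birc5 ranged from -0.12 to 0.17 and Abcg2 from -0.36 to 0.25. Quantile normalization gave Abcb1a 0.074 and Krt10 0.022. Without vehicle replicates 1 and 2 the change was 0.14 for Arg1, 0.046 for Clec4d, 0.38 for Lum, 0.96 for Dcn, 0.11 for Atp2a1, 0.018 for Fabp4 and -0.049 for Psrc1. Without vehicle replicate 2 and YM-155 replicate 3 it was 0.27 for Clec4d, 0.20 for Myh4, 0.32 for Atp2a1 and 0.26 for Alb. The cause was not tested.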

Other observations

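Aminoacyl-tRNA synthetase genes, which charge tRNAs with amino acids, were gathered after values were seen and get no test as lists. Of 20 cytosolic ones Mars and Vars rose, by 0.92 (SE 0.18, limma adjusted p = 0.0192) and 0.52 (SE 0.14, adjusted p = 0.0439), with a median change of 0.34 over the list and 11 of 20 with all YM-155 values above all vehicle values. Mars, the methionine enzyme, was at 6.89, 7.01 and 7.45 under YM-155 and 6.22, 5.84 and 6.54 under vehicle. Of 17 mitochondrial ones Vars2, the valine enzyme, rose by 1.00 (SE 0.17, adjusted p = 0.0163), with 7 of 17 having separated groups and a median of 0.47, or 0.24 without vehicle replicate 2. The share of all genes tested with YM-155 above vehicle in this way was 12.5%, and 2.22% were called higher. Voom called 1 gene of each list.

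Untreated or isotype-treated A/J WGD- tumours of the other experiments show how far these genes range without YM-155, at levels from tables normalized separately and with no test. The interferon-gamma list averaged 5.14, 6.55 and 6.14 in isotype libraries and 3.62, 2.83 and 3.39 at day 8, and at day 14 it averaged 7.17, 6.53 and 6.03. The low YM-155 libraries, at 2.60 and 3.37, thus lay near the day 8 tumours and below the day 14 and isotype ones. Aurkb was at 6.30, 6.08 and 5.83 in isotype libraries, at 6.38, 6.88 and 6.26 at day 8 and at 6.15, 6.28 and 6.29 at day 14. These values lie above the vehicle libraries of the YM-155 experiment, at 5.59, 5.41 and 5.38, and overlap the YM-155 libraries. The G2/M list averaged 7.205, 6.96 and 6.66 in isotype libraries. It averaged 6.82, 7.51 and 7.06 at day 8 and 6.79, 6.81 and 7.10 at day 14. The replication list averaged 6.74, 6.63 and 6.24 in isotype libraries. It averaged 6.39, 7.14 and 6.87 at day 8 and 6.465, 6.58 and 6.67 at day 14. Both lists overlapped the YM-155 libraries, and isotype replicate 3 lay within the vehicle range. Nqo1 was at 4.41, 3.82 and 4.31 in isotype libraries, at 4.70, 4.40 and 4.14 at day 8 and at 4.91, 3.66 and 3.87 at day 14. Arg1 was at 6.20, 5.9 and 7.79 in isotype libraries, at 7.41, 4.47 and 5.64 on day 8 and at 6.01, 8.04 and 4.63 on day 14. Il1rl1 was at 1.53, 3.21 and 3.75 in isotype libraries, at 2.42, 1.65 and 1.23 on day 8 and at 4.02, 1.195 and 0.98 on day 14. The lowest of these values lay within the range of the YM-155 libraries, at 0.73, 1.17 and 0.34.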
